A study of Mus musculus with 6 samples.

Results

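Serum amyloid A (Saa1, Saa2, Saa3 and Saa4), lipocalin 2 (Lcn2) and the calprotectin subunits S100a8 and S100a9 were measured in mouse intestinal tumors of 2 sites. The members were all probe sets whose platform annotation named exactly 1 of these 7 genes. They covered 7 of 12393 genes so named, with 9 of 22690 probe sets, 2 each for Saa1 and Saa4 and 1 for each of the other genes. No member was named by a probe set that also named another gene. The samples were 3 duodenal tumors, which could include tumor tissue from the pylorus, and 3 cecal tumors, each from a different mouse and each on 1 Affymetrix array. All 6 mice were Rb1 deficient and carried Apc1638N. Rb1 is the retinoblastoma tumor suppressor gene, and Apc1638N is an Apc allele under which intestinal tumors arise. The sources used here do not give the way Rb1 was removed, the cells it was removed from or the ages of the mice. Normal mucosa and tumors that keep Rb1 were not analysed here, and the normal tissues of the 2 sites also differ from each other. The tumors were whole pieces of tissue, in which fewer cells of a type and less RNA per cell cannot be told apart.

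Acute-phase proteins are made in quantity when cytokines such as interleukin 6 and interleukin 1 reach the liver or an epithelium, where the factors NF-kB, STAT3 and C/EBP act on their genes. Saa1 and Saa2 are the circulating serum amyloid A proteins, lipid-binding proteins that liver and also intestinal epithelium can make, the latter in response to gut bacteria. Saa3 is made by many tissues outside the liver, including macrophages, fat and gut epithelium, and Saa4 is the constitutive form. Lcn2 binds bacterial siderophores and so withholds iron from bacteria. S100a8 and S100a9 form calprotectin, which binds zinc and manganese and is abundant in neutrophils.

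In the RefSeq gene order of assembly GRCm38.p6, Saa3, Saa4, Saa1 and Saa2 followed each other on chromosome 7, with the lncRNA Gm31882 and the pseudogene Saa-ps between them. S100a8 and S100a9 were direct neighbours on chromosome 3, and Lcn2 lay on chromosome 2. The 250 bases before the transcription start of Saa1 and Saa2, in the RefSeq promoter table of that assembly, are shown because the genes are near copies and were measured by probe sets that may not separate them. Those of Saa3 and Lcn2 are shown for comparison. Capitals mark matches to the C/EBP motif TTGCNNAA on either strand.
Saa1, chr7:46742981-46743230, minus strand: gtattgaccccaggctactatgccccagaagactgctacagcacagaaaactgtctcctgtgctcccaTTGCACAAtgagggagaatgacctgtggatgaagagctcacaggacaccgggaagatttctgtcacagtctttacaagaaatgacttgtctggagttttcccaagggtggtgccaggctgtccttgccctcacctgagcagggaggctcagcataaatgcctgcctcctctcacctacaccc
Saa2, chr7:46751583-46751832, plus strand: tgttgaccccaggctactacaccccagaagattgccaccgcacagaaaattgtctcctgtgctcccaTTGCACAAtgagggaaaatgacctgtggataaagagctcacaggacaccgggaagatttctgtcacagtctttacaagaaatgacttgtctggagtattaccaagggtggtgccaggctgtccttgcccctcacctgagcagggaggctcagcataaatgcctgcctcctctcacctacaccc
Saa3, chr7:46715677-46715926, minus strand: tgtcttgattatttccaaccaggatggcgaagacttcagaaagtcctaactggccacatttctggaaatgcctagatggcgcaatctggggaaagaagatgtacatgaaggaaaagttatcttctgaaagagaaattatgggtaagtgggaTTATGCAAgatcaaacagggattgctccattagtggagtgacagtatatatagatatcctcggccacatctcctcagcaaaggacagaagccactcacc
Lcn2, chr2:32387740-32387989, minus strand: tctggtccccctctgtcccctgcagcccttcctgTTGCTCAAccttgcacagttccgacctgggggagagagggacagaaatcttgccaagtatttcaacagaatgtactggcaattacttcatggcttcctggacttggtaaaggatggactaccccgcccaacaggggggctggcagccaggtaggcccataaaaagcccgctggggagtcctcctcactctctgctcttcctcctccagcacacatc
Aligned over 251 columns, 2 of them gaps, the Saa1 and Saa2 windows were 94.8% identical, whereas those of Saa1 and Saa3 were 48.2% identical. The capitals of Saa1 and Saa2 mark the same letters, TTGCACAA, whose first base lay 182 and 183 bases before the start. The match of Saa3 was TTATGCAA, 99 bases before the start and on the other strand, and that of Lcn2 was TTGCTCAA, 216 bases before it. Of the other members, the Saa4 window held 2 matches, that of S100a9 held 1 and that of S100a8 none. A match occurred in 9.56% of 32851 promoter windows of this length. The STAT motif TTCNNNGAA, found in 7.02% of all windows, and the NF-kB consensus, found in 7.25%, matched none of the 7 member windows, and so no matches overlapped. These are letter matches in a short window and say nothing on binding.

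Saa1 set the cecal tumors apart from the duodenal tumors more widely than any other member, by the fitted difference of its 2 probe sets. Of these, the brighter in cecal tumors, ending in _at, had an intensity of 17.3, 1.4 and 7.3 in duodenal tumors 1, 2 and 3. In cecal tumors 1, 2 and 3 it had 8211.9, 3892.5 and 5303.2. The other, ending in _s_at, read 37.1, 9.8 and 29.6 in the duodenal tumors and 6411.5, 3007.7 and 3715.1 in cecal tumors. All duodenal values were below the level of 92.4 to 100.6 that marks the 40th percentile of the arrays, used here in place of a detection call, and all cecal values were far above it. Cecal tumor 1 was the highest and cecal tumor 2 the lowest of the cecal tumors with both probe sets. The means were 8.7 ± 8.0 (SD, n = 3) and 5802.5 ± 2202.6 with the first probe set, which was higher in cecal tumors, at least 55.1-fold, and at least 41.4-fold with the other. The fitted log2 differences, cecal minus duodenal on the log2(intensity + 16) scale, were 7.86 ± 0.31 (SE, limma adjusted p = 5.79e-06) and 6.72 ± 0.34 (adjusted p = 2.4e-05). As the duodenal values were dim, these fitted sizes depend on the offset of 16, and the lower bounds do not.

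Saa2 was measured by 1 probe set, ending in _x_at, and moved the same way at a lower brightness. It had 10.1, 23.8 and 23.7 in duodenal tumors and 379, 222.6 and 245.2 in cecal tumors. The groups did not overlap, and cecal tumor 1 was again the highest. Saa2 was higher in cecal tumors, at least 2.74-fold (fitted log2 difference 3.07 ± 0.28 SE, limma adjusted p = 0.000495). The names Saa1 and Saa2 are uncertain here. The platform gives the _s_at probe set to Saa1, but its accession is a transcript that RefSeq assigns to Saa2, and the same accession stands behind the Saa2 probe set. In Affymetrix naming, the endings _s_at and _x_at mark probes shared between transcripts or open to cross-hybridisation, so these values may be read as those of a Saa1 and Saa2 pair.

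Saa3 was well above the 40th percentile level in all 6 tumors and was higher in cecal tumors. It had 329.3, 410.2 and 225.6 in duodenal tumors and 968.5, 1051.9 and 1309.2 in cecal tumors. The lowest cecal value was above the highest duodenal one. The means were 321.7 ± 92.5 and 1109.9 ± 177.6 (SD, n = 3 each), a log2 difference of 1.76 ± 0.22 (SE, limma adjusted p = 0.00236), or 3.4-fold. The Saa3 difference does not rest on a dim group. Among the cecal tumors the order was not that of Saa1: tumor 3 was the highest for Saa3 and tumor 1 the lowest.

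Saa4 was dim everywhere and was not tested. Its brighter probe set read 4.1, 22.4 and 5.8 in the duodenal tumors and 44.2, 12.6 and 18.6 in the cecal tumors, and the other did not exceed 10.4 in any tumor. No order can be read from values this far below the 40th percentile level.

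Lcn2 showed no difference between the sites that exceeded the spread between tumors. It had 604.8, 932.4 and 571.6 in duodenal tumors and 262.5, 852.2 and 791.1 in cecal tumors. The groups overlapped, and cecal tumor 1, the highest for Saa1, was the lowest of all 6 tumors for Lcn2. The means were 702.9 ± 199.4 and 635.3 ± 324.3 (SD, n = 3 each). The log2 difference was -0.28 ± 0.42 (SE, limma adjusted p = 0.751), with a 95% interval from -1.23 to 0.68. The interval does not reach the log2 difference of 1.76 fitted for Saa3. A direct test between these probe sets was not made. The sign of the Lcn2 difference turned without cecal tumor 1 (0.25, adjusted p = 0.628) and with array weights (0.08, adjusted p = 0.911), and the range of adjusted p over all alternatives was 0.552 to 0.96.

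S100a8 and S100a9 varied widely within the cecal site, and neither passed the test between sites. S100a8 had 144.8, 58.9 and 30.9 in duodenal tumors and 93.6, 154.1 and 825.3 in cecal tumors. S100a9 followed with 149.3, 21.9 and 23.5 in the duodenal tumors and 71.5, 155.5 and 656.7 in cecal tumors. For both genes cecal tumor 3 was by far the highest, followed by cecal tumor 2 and duodenal tumor 1, and the groups overlapped. The log2 differences were 1.60 ± 0.74 (SE, limma adjusted p = 0.241; 95% interval -0.09 to 3.29) and 1.78 ± 0.79 (adjusted p = 0.224; -0.04 to 3.61). Without cecal tumor 3 they were 0.72 and 0.96. Over the 6 arrays the log2 values of the 2 genes correlated at a Pearson r of 0.97, and their deviations from the site means at 0.96. That is a description of 6 tumors whose arrays were each shared by both genes, and several of the values were below the 40th percentile level.

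**Figure D1:**
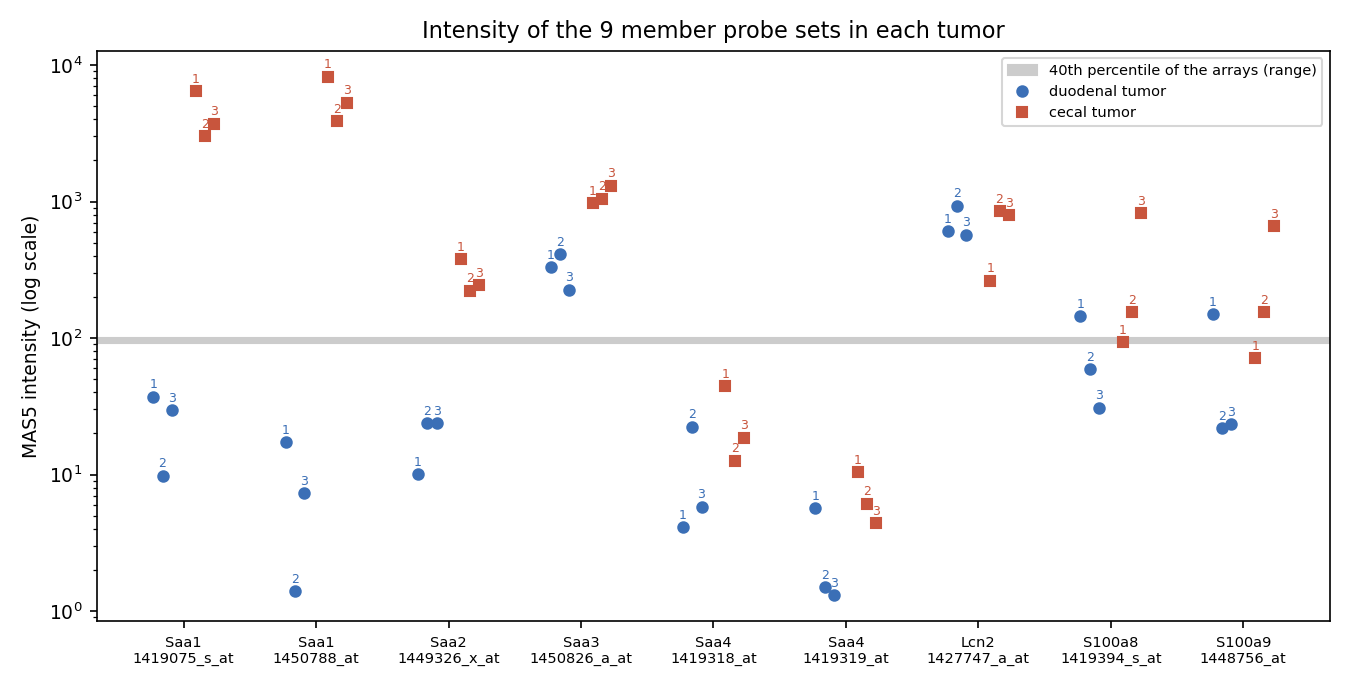
MAS5 intensity (log axis) of the 9 member probe sets in each of 3 duodenal (circles) and 3 cecal tumors (squares), numbered by replicate; the grey band is the range of the arrays' 40th percentiles, 92.4 to 100.6. Saa1 and Saa2 lie below the band in all duodenal and above it in all cecal tumors, Saa4 lies below it in all tumors, and S100a8 and S100a9 are highest in cecal tumor 3.

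Of the 9 member probe sets 7 were tested, and 4 of these, for 3 genes, were higher in cecal tumors at a limma adjusted p under 0.05. None was lower by limma, at an unadjusted p under 0.05 either (0 probe sets), and 3 did not pass. Among all 13866 tested probe sets 5.24% were higher and 4.07% lower in cecal tumors. Of the 4, Saa1 (2 probe sets) and Saa2 were dim in all duodenal tumors and entered the test through the cecal tumors alone, so their direction largely follows from the filter. Without any filter these 3 probe sets still passed. Their log2 differences are the same with and without it by construction, since each probe set is fitted on its own values. Saa3 was bright enough at both sites to be tested either way.

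**Figure D2:**
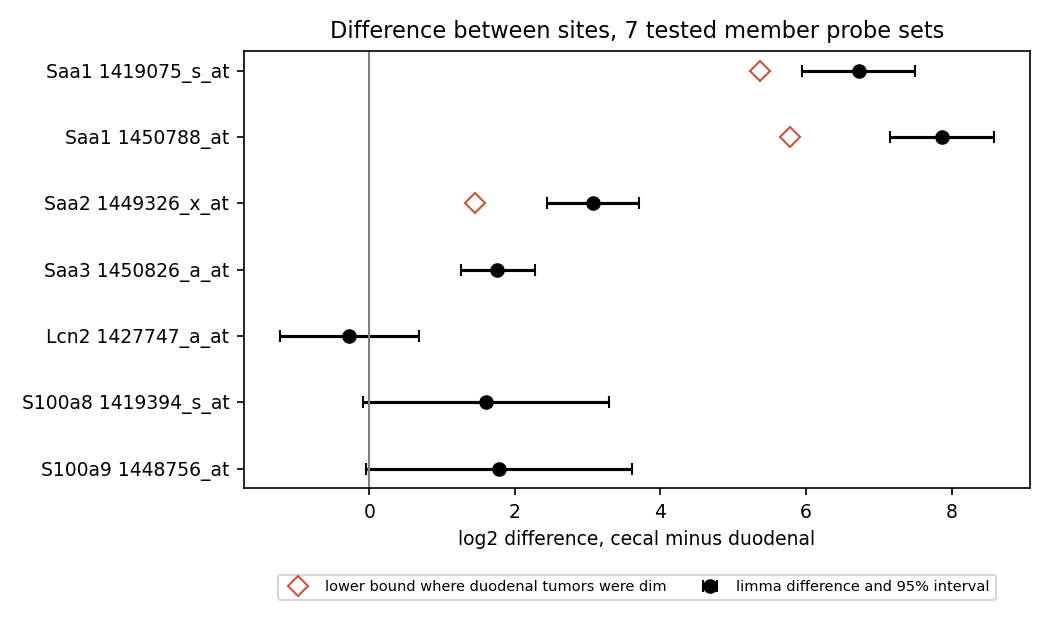
Log2 difference (cecal minus duodenal) of the 7 tested member probe sets, with the limma estimate and its 95% interval (n = 3 tumors a site); diamonds give the lower bound for probe sets that were dim in all duodenal tumors. The intervals of Saa1, Saa2 and Saa3 lie above 0, and those of Lcn2, S100a8 and S100a9 include 0.

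Genes known for each site were read beside the labels of site. Of 12 genes of the duodenum and pylorus, all 12 tested, 12 were lower in cecal tumors, and of 9 tested genes of the cecum and colon 8 were higher. The exception was Hoxa9, at 2768.4 in duodenal tumor 2 and at most 14.2 in the other duodenal tumors. Of the tested genes, 10 of the duodenum and pylorus and 6 of the cecum and colon were dim throughout the other site. They entered the test through 1 site alone, so their direction largely follows from the filter. The lists were chosen with earlier results of these data known, so the counts are no independent check of the labels. The arrays' median intensities ran from 164.6, in cecal tumor 1, to 181.8. By Xist, the tumors numbered 2 came from female mice and the other 4 from males. The S100a8 and S100a9 peak in cecal tumor 3 and the low Lcn2 in cecal tumor 1 were thus both in tumors of male mice. With the males alone, which leaves out both tumors numbered 2, the same 4 member probe sets passed, as they did without duodenal tumor 2 alone.

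Cells other than intestinal epithelium can also make the members, and their markers were read in the same tumors. Of 23 neutrophil genes on the array, 18 were too dim to be tested. Mpo, Elane, Ngp and Camp, which encode granule proteins, stayed at or below 65.8 in all 6 tumors, and the neutrophil receptors Cxcr2 and Csf3r at or below 95.4. Of these 18 untested genes, Itgam, Il1r2 and Trem1 had higher readings in all cecal than in all duodenal tumors. They had 42.9 to 56.7, 37.5 to 47.1 and 3.8 to 5.9 in duodenal tumors. In cecal tumors they had 61.6 to 76.4, 54.5 to 72.5 and 10.2 to 21.4. No untested gene of the list was lower without overlap. All values of Itgam, Il1r2 and Trem1 were below the level used here in place of a detection call. As for Saa4, no order is read from values this dim. How often untested genes elsewhere on the array differed without overlap was not counted. The summed intensity of the whole list was 7540.5 to 10304.1 in duodenal and 5459.7 to 7511.5 in cecal tumors. It was mostly that of Pglyrp1 and Ltf, whose proteins epithelia also secrete. Without these 2 genes the sum of the remaining 21 was 897.5 to 1074 in the duodenal and 1149.6, 1320.6 and 1471.5 in cecal tumors 1, 2 and 3, the order of S100a8 and S100a9 there. In duodenal tumors it was not: the sum was highest in tumor 2, and S100a8 in tumor 1. Leaving out Ltf and Pglyrp1 was not set beforehand. Of the remaining 21 genes only Mmp9, Fcgr3 and Padi4 were bright enough to be tested. The part of neutrophils in the calprotectin values was not tested. Mmp9, a matrix protease that neutrophils carry and that can bind Lcn2, was higher in cecal tumors (82.4, 133.6 and 82.8 against 215.3, 324.4 and 301.3; log2 difference 1.37 ± 0.23 SE, limma adjusted p = 0.00967). A second Mmp9 probe set had 1.14 (adjusted p = 0.0523). Among neutrophil genes Fcgr3, an antibody receptor, had 229 ± 13.7 in duodenal and 261.7 ± 29.7 in cecal tumors, and Pglyrp1 5732.9 ± 901.6 and 5103.2 ± 814.6 (SD, n = 3 each); neither passed.

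Of 5 tested hepatocyte genes 2 were higher and 1 was lower in cecal tumors, and 12 of the 17 on the array were too dim to be tested. Among all 8125 tested genes, each by its brightest probe set, 5.71% were higher and 4.73% lower. Ahsg, Fga, Fgb and Fgg, plasma proteins of hepatocytes, stayed at or below 20.3 in all tumors, and the summed intensity of 17 hepatocyte genes was 4183.7 to 5944.8 in duodenal and 2097.4 to 3329.7 in cecal tumors. Alb had 54.9, 2168.4 and 210.5 in duodenal tumors 1, 2 and 3 and 45.8, 199.2 and 102 in cecal tumors. Ttr had 2409.7 ± 902.8 in duodenal and 1491.1 ± 597 in cecal tumors (limma adjusted p = 0.227). Cps1, also an enzyme of the small intestine, was the one that was lower in cecal tumors (log2 difference -2.91 ± 0.44 SE). The 2 that were higher there, as Saa1 was, were Hpd and Tat, which catalyse tyrosine breakdown and are named after their values were seen (limma adjusted p = 0.00394 for each). Hpd had a log2 difference of 1.83. Tat, dim in all duodenal tumors, entered the test through the cecal tumors alone and was higher there, at least 1.35-fold. The part of liver cells in the Saa1 and Saa2 values was not tested. Fat markers overlapped between the sites: the 8 adipocyte genes summed to 681.8 to 1045.5 in duodenal and 649.6 to 840.3 in cecal tumors, and Adipoq stayed at or below 15.5. Fabp4 had a log2 difference of -0.48 (adjusted p = 0.293), and Cidec and Pck1 were too dim to be tested. The 14 macrophage and monocyte genes summed to 9814.9 to 11837 in duodenal and 12957.7 to 14234.5 in cecal tumors, with no overlap, as for Saa3. Among them Ctss, a lysosomal protease, was higher in cecal tumors (log2 difference 0.68 ± 0.13 SE, adjusted p = 0.0166). It no longer passed when either of cecal tumors 1 and 2 or duodenal tumor 1 was left out (adjusted p = 0.0566 to 0.0685). Lyz2, lysozyme of macrophages, had 0.33 (adjusted p = 0.213) and Csf1r, the macrophage growth factor receptor, 0.08 (adjusted p = 0.78). The part of macrophages in the Saa3 difference was not tested.

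Squamous epithelium, which can carry much S100a8 and S100a9, gave the 16 genes of its list a sum of 4312.7 to 5972.1 in duodenal and 1798.5 to 3719.7 in cecal tumors, the lowest being cecal tumor 3. The keratin gene Krt5 had 260.3, 60.7 and 257.8 in duodenal tumors and at most 66.3 in cecal tumors. Sprr1a had 3653.6, 3576.2 and 3113.5 in the duodenal and 2862.2, 2936.5 and 1007.7 in the cecal tumors (limma adjusted p = 0.271), Krt10 had a log2 difference of -0.84 (adjusted p = 0.161, or 0.00954 without duodenal tumor 2) and Krt14 one of 0.16 (adjusted p = 0.909). The 10 epithelial genes summed to 61646.3 to 68787.6 in duodenal and 77204.2 to 80885.2 in cecal tumors, and did not overlap. Krt8, Krt18 and Krt19 did not pass (log2 differences 0.21, -0.14 and 0.13), though Krt8 did without duodenal tumor 3 (adjusted p = 0.0333). Cldn3, Cldn7 and Vil1, named after their values were seen, were higher in cecal tumors (1.20, 0.50 and 0.58). The Vil1 call ended when any single array other than duodenal tumor 3 was left out (adjusted p = 0.0533 to 0.1), and in the males alone neither Vil1 (0.171) nor Cldn7 (0.0841) passed. Acinar genes of the pancreas, which lies next to the duodenum, summed to 4728.3 to 11647.6 in duodenal and 1468.7 to 3014.6 in cecal tumors. Cela1 was lower in cecal tumors (log2 difference -1.56, adjusted p = 0.0102, or 0.0515 without cecal tumor 1), while Pnliprp2 and Pnliprp1 did not pass. Both were brightest in duodenal tumor 2, the tumor with the sum of 11647.6. There Pnliprp2 had 6145.3 and Pnliprp1 2611, against at most 634.2 and 223.7 in the other duodenal tumors.

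None of the inducing cytokines that could be tested passed, and most could not be tested. Il22, Il17f, Osm and Il36a had no probe set naming them alone. Of 16 cytokines 12 were on the array and 4 were bright enough to be tested, against 5.71% of 8125 tested genes higher and 4.73% lower in cecal tumors when each gene was taken by its brightest probe set. By limma's unadjusted p under 0.05, 1 of the 4 was lower. The median of the 4 was -0.47, beside -0.05 over all tested genes. Il1b, the gene of interleukin 1 beta, had 182.3, 123.4 and 101.4 in the duodenal and 106.9, 423.8 and 436.7 in the cecal tumors (log2 difference 0.97 ± 0.48 SE, limma adjusted p = 0.273). Its cecal tumor 1 value lay within the duodenal range, and without that tumor the difference was 1.59 (adjusted p = 0.0178). Il33, an alarmin of epithelium and stroma, had 898.3, 391.4 and 809 in the duodenal tumors and 322.1, 230 and 363.6 in the cecal tumors (log2 difference -1.09, adjusted p = 0.068). It passed with replicate number as a blocking term (0.00801) and without duodenal tumor 2 (0.00603). Il11 and Il18 differed by -0.71 and -0.23 and did not pass. Il6 stayed at or below 63.1 and Il17a at or below 63.3 in all tumors, too dim to be tested, as was Tnf.

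Few receptors and transcription factors of the response passed, all of them higher in cecal tumors. By the brightest probe set, each of these calls was lost without some single arrays and in the males alone. Over all tested genes 5.71% were higher and 4.73% lower. Of 14 tested receptor genes 2 were higher in cecal tumors and none lower, with a median of -0.04. They were Il10rb, a subunit of the interleukin 22 and interleukin 10 receptors (1127.4 ± 75.4 against 1734.9 ± 164 SD, n = 3 each; log2 difference 0.61 ± 0.12 SE, limma adjusted p = 0.0191), and Il17rc, of the interleukin 17 receptor (0.92 ± 0.22, adjusted p = 0.0399). The call of Il10rb was lost without 4 of the single arrays (duodenal tumors 1 and 3, cecal tumors 1 and 2; adjusted p = 0.0513 to 0.0667). That of Il17rc ended when any single array other than duodenal tumor 1 was left out (0.0504 to 0.124). Cd14, the lipopolysaccharide co-receptor, and Lifr had log2 differences of 0.40 and -0.71 and did not pass, though Lifr did without duodenal tumor 2 (0.0296). Of 14 tested transcription factors 2 were higher and none lower, with a median of 0.10. Hnf4a, a factor of liver and gut epithelium, had 3422.1 ± 246.3 and 4846.2 ± 385.9 (log2 difference 0.50 ± 0.11 SE, adjusted p = 0.0266), and its 3 other probe sets had 0.71 to 0.85 and also passed. The brightest probe set lost its call without any single array (adjusted p = 0.0542 to 0.0992). Relb, an NF-kB subunit, had 262.9, 206.9 and 167.9 in the duodenal and 332.1, 388.3 and 443.2 in the cecal tumors (log2 difference 0.83 ± 0.19 SE, adjusted p = 0.0322). Leaving out any single array other than duodenal tumor 1 ended that call (0.0592 to 0.105). Fos had 0.69 (adjusted p = 0.0538, or 0.0346 with the block; it was 0.0305 when duodenal tumor 1 was left out) and Cebpa 0.38 (adjusted p = 0.144). Stat3 had -0.06 (adjusted p = 0.882), Cebpb 0.08 and Rela -0.08, all named after their values were seen.

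Inhibitors of NF-kB and STAT3 signalling, among them feedback inhibitors whose genes these factors themselves induce, gave no call. None of 9 tested genes passed by limma, 1 was higher at an unadjusted p under 0.05, and their median was 0.13. Nfkbia, the inhibitor that holds NF-kB in the cytoplasm, had 4010.5 ± 222.1 in duodenal and 4419.6 ± 584.9 in cecal tumors (SD, n = 3 each; log2 difference 0.13, limma adjusted p = 0.584). Socs3, the inhibitor induced by STAT3, had 899.3 ± 169.4 and 695.7 ± 156 (log2 difference -0.37, adjusted p = 0.335), and its 2 other probe sets had -0.39 and -0.21. Zc3h12a had 0.69 (adjusted p = 0.0839), Tnfaip3 0.36, Birc3 0.31 and Ptpn2 -0.08.

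The other acute-phase proteins went both ways. Of 28 genes 25 were on the array and 13 tested by limma. At an adjusted p under 0.05, 3 were lower in cecal tumors and none higher, and at an unadjusted p under 0.05, 5 were lower and 3 higher, with a median of -0.69. Over all tested genes 4.73% were lower and 5.71% higher at the adjusted threshold. A2m, a protease inhibitor, had 2903.1, 537.4 and 752 in the duodenal tumors and did not exceed 15.1 at the other site, and so was at least 11-fold brighter in the former (limma adjusted p = 0.000878). Crp, C-reactive protein, had 109.5, 116.5 and 506.3 in the duodenal tumors and did not exceed 57 at the other site, at least 1.94-fold brighter in the former. Its call (adjusted p = 0.0473) was lost under 10 alternatives (0.0511 to 0.162). Both entered the test through the duodenal tumors alone. Mt1, a metallothionein, had 4829.1 ± 1894.1 in duodenal and 2047 ± 524.4 in cecal tumors (SD, n = 3 each; log2 difference -1.18 ± 0.29 SE, adjusted p = 0.0435). It did not pass under 7 alternatives (0.0526 to 0.154), among them those without duodenal tumors 1 or 3 or cecal tumors 1 or 2. Mt2 had -1.36 (adjusted p = 0.0796, or 0.00365 with the block) and Lrg1, a secreted glycoprotein, -1.31 (adjusted p = 0.0654, or 0.0403 with the block). Both passed when duodenal tumor 2 was left out (0.0241 and 0.00452), as did Mt2 without cecal tumor 3 (0.0295). Orm1, Hpx, Itih4 and Apcs, liver acute-phase genes, stayed at or below 27.4 in all tumors. Haptoglobin, Hp, had 153.7, 175.5 and 44.7 in the duodenal and 66.8, 252.9 and 355.1 in the cecal tumors, and so was lower in cecal tumor 1 than in the other cecal tumors, as was Lcn2. Serpina3n, a secreted serine protease inhibitor, had 1141.8, 715.4 and 1202.1 in the duodenal and 1518.3, 1558.3 and 3004.1 in the cecal tumors (log2 difference 0.94, adjusted p = 0.0927, or 0.0189 with the block), and was highest in cecal tumor 3. Cp, the ferroxidase ceruloplasmin, had 428.2, 562.8 and 455.8 against 771.6, 682.1 and 649.8, with no overlap (log2 difference 0.53, adjusted p = 0.0656). Steap4, a metal reductase, had 213.8, 536.7 and 266.3 against 661.7, 619.3 and 522.3 (0.90, adjusted p = 0.112). Both passed with array weights (0.0214 and 0.0242) and when duodenal tumor 2 was left out (0.0369 and 0.00527). Hp, Serpina3n, Cp and Steap4 are named after their values were seen.

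Epithelial genes of antimicrobial defence and microbial response moved in both directions. Of 21 tested, 5 were higher in cecal tumors and 1 lower, with a median of 0.72, beside 5.71% higher and 4.73% lower over all tested genes. B3galt5, a glycosyltransferase of the large intestine, was higher in cecal tumors, at least 6.08-fold, and entered the test through those tumors alone. Reg4, a secreted lectin, rose from 2189.2 ± 929.7 to 12845.8 ± 1154 (SD, n = 3 each; log2 difference 2.63 ± 0.28 SE, limma adjusted p = 0.0011). Ccl28, a mucosal chemokine, had 1.59 ± 0.24 (adjusted p = 0.00576) and Lypd8, which keeps flagellated bacteria off the colonic epithelium, 0.74 ± 0.14 (adjusted p = 0.0156). The call of Lypd8 was lost without cecal tumor 1 (0.0773) or 2 (0.0546). Retnlb, a goblet cell product named after its values were seen, had 5.15 (adjusted p = 0.0151, or 0.0756 without cecal tumor 1). The 1 gene that was lower was Ccl20, a chemokine that epithelium makes on microbial contact, at least 1.55-fold brighter at the duodenal site (adjusted p = 0.00832). Ccl20 was dim in all cecal tumors and entered the test through the duodenal tumors alone. Dmbt1, a bright scavenger receptor of the mucosa, had 0.14 (adjusted p = 0.621). The lectins Reg3b and Reg3g, which the intestine makes in response to bacteria as it does Saa1, are named after their values were seen. Reg3g had 5240.7, 533.6 and 2170.8 in the duodenal and 5739.3, 1714.4 and 5083.3 in the cecal tumors (log2 difference 1.00, adjusted p = 0.494), and Reg3b had 8370.4, 1020.6 and 6931.9 against 10201, 3089.9 and 8542.6 (0.72, adjusted p = 0.636). For both, cecal tumor 2 was the lowest of the cecal tumors, as it was for Saa1.

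**Figure D3:**
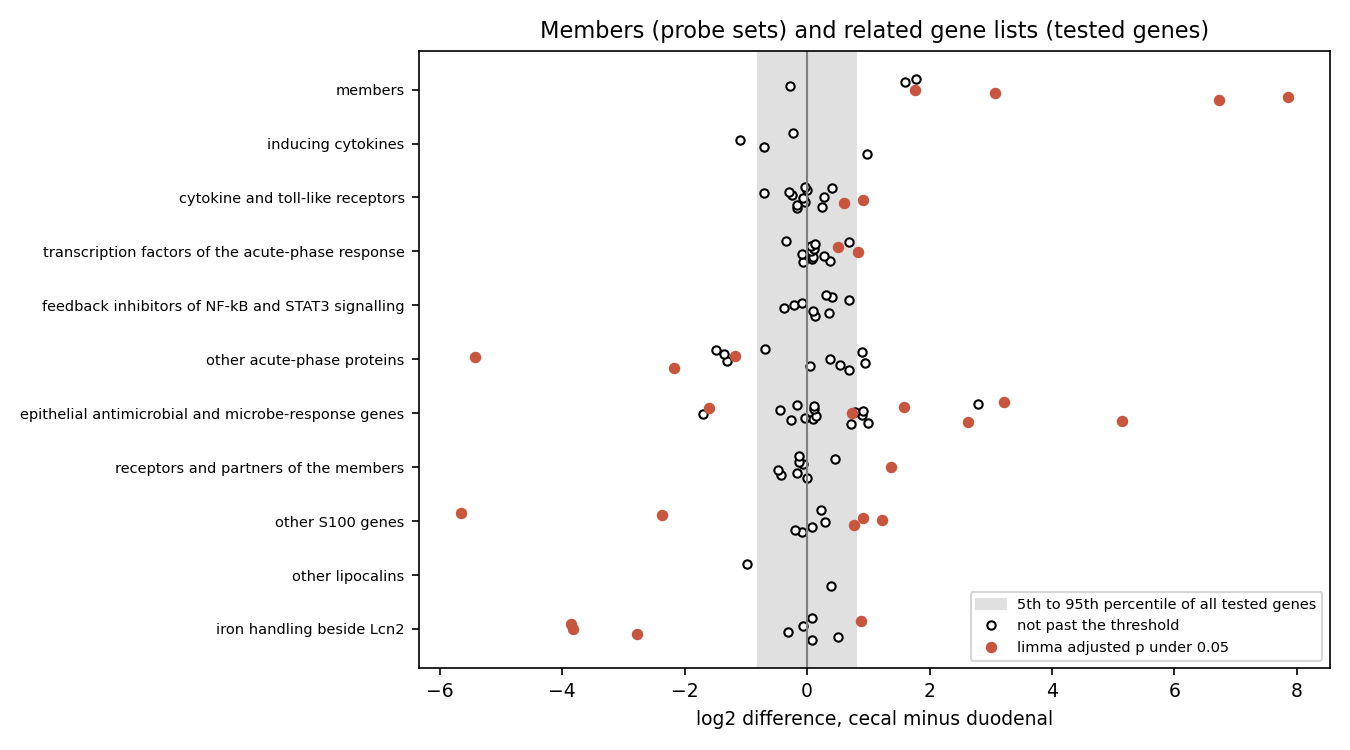
Log2 difference (cecal minus duodenal) of the tested member probe sets and of the tested genes of each related list, each gene by its brightest probe set; filled points passed at a limma adjusted p under 0.05, open points did not, and grey spans the 5th to 95th percentile of all tested genes (-0.81 to 0.80). The Saa1, Saa2 and Saa3 points lie right of the band, no cytokine or feedback inhibitor is filled, and the filled genes among the other acute-phase proteins lie left of 0.

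Within the cecal site the members fell into differing orders. Saa1, by both probe sets, and Saa2 were highest in tumor 1. Lcn2 was lowest there and higher in tumors 2 and 3. Saa3, S100a8 and S100a9 were highest in tumor 3 and lowest in tumor 1. The deviations of Saa1 from the site means correlated with those of Lcn2 at -0.84 (brighter probe set) and -0.90 over 6 arrays, and with those of Saa3 at -0.31 and -0.56. The 3 duodenal values of Saa1 in these correlations were dim and have no order of their own. Genes of neutrophil attraction, named after their values were seen, had the cecal order of Lcn2 or of S100a8. Cxcl1 had 199, 512.4 and 413.9 in cecal tumors 1, 2 and 3 and 241.3, 188.3 and 169.3 in duodenal tumors. Cxcl2 had 75.8, 371.7 and 403.5 in cecal and 140.5, 140 and 73.6 in duodenal tumors. Neither passed with all arrays (limma adjusted p = 0.188 and 0.369), and without cecal tumor 1 both did, with log2 differences of 1.16 and 1.64 (adjusted p = 0.0257 for each). Thus Il1b, Cxcl1, Cxcl2 and Lcn2 all had their lowest cecal value in the tumor with the highest Saa1. The array of that tumor also had the lowest median intensity of the 6, at 164.6. With median centring of the arrays the log2 difference of Lcn2 was -0.22, beside -0.28 without it. The part of the array in these low values was not tested. Timm44 had 830.5, 1419 and 1297 in cecal tumors 1, 2 and 3, and Akt2 299.1, 477.9 and 443.7. Both were picked for likeness to Lcn2 over the same arrays, so their low value in cecal tumor 1 follows from that choice.

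**Figure D4:**
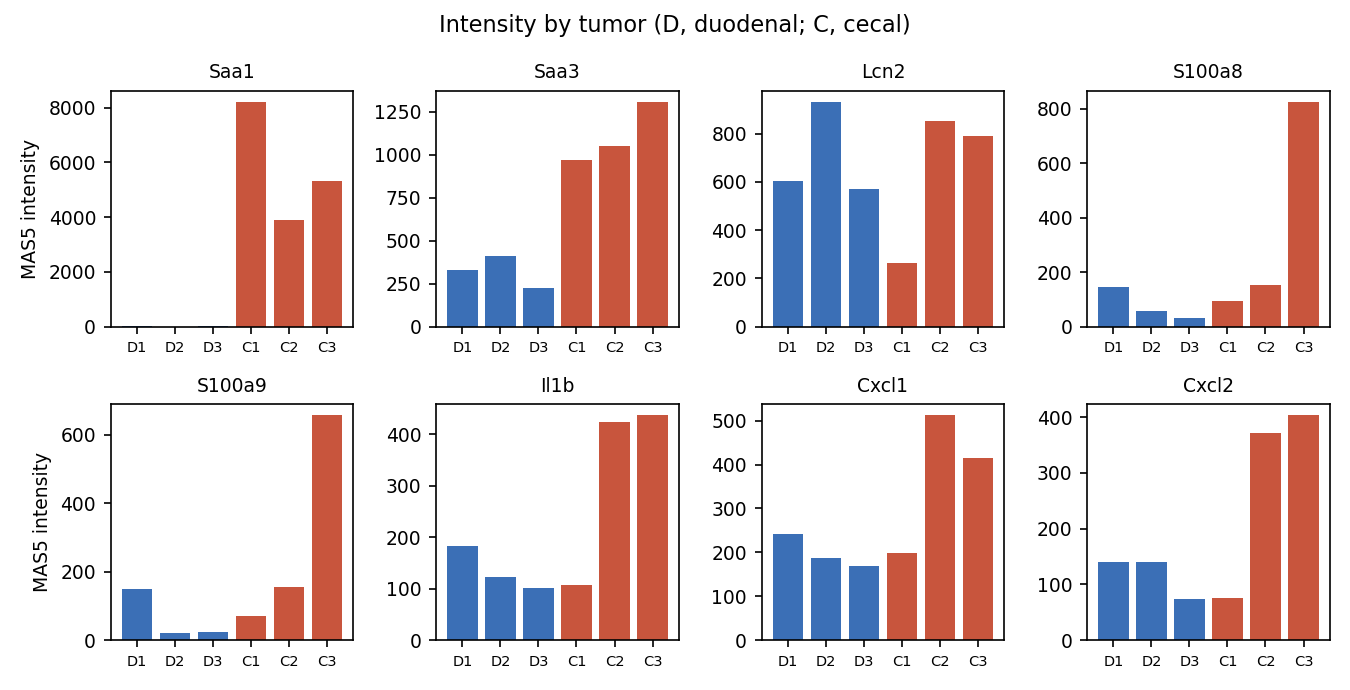
MAS5 intensity (linear axis from 0) of Saa1 (brighter probe set), Saa3, Lcn2, S100a8, S100a9, Il1b, Cxcl1 and Cxcl2 in duodenal tumors 1 to 3 (D1 to D3) and cecal tumors 1 to 3 (C1 to C3), 1 bar a tumor. Cecal tumor 1 has the highest Saa1 bar, at 8211.9, and the lowest Lcn2 bar, at 262.5, and cecal tumor 3 has the highest S100a8 and S100a9 bars.

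Over the 6 arrays the genes most like Saa1, by Pearson correlation of log2 values, were Hsd17b2, Tspan1, Cyp2d34, Lipg and Ms4a8a (r = 0.9961 to 0.9992), a likeness to which the difference between the sites contributes most. In deviations from the site means, which rest in part on the dim duodenal values of Saa1, they were Cd36, C1galt1c1, Cpne3, Pigo and Plekha6 (0.9869 to 0.9917). Those most like Lcn2 were Hmbox1, Akt2, Plscr3, Spg7 and Timm44 (0.98 to 0.9926), and in deviations Zfp282, Ctr9, Hmbox1, Hgh1 and Dazap1 (0.9968 to 0.9988). Those most like S100a8 were P4ha2, Ap2b1, Chst15, Cybc1 and Dync1li1 (0.9469 to 0.9799). In deviations they were Cxcl5, Zfp318, Dcps, Cybc1 and Nfia (0.9865 to 0.9929). Cxcl5, a chemokine that attracts neutrophils, had 289.3, 155.5 and 136 in the duodenal and 67.7, 96.1 and 319.2 in the cecal tumors, and was highest in cecal tumor 3 among the cecal tumors; some of these values and of those of S100a8 were below the 40th percentile level. These are the leading genes of 8125 tested, less the members, over only 6 tumors, and are given as a description.

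The nearest relatives of the members differed between sites in their own ways. Of 10 tested other S100 genes 3 were higher and 2 lower in cecal tumors, with a median of 0.15. Over all tested genes the shares were 5.71% and 4.73%. S100a14 rose from 1240.5 ± 59.1 to 2933.7 ± 524.4 (SD, n = 3 each; log2 difference 1.22 ± 0.15 SE, limma adjusted p = 0.00193) and S100a10, the annexin A2 partner, from 4240.8 ± 125.4 to 7212.7 ± 491.6 (0.76 ± 0.10, adjusted p = 0.00248). S100a16 also rose, by 0.92, and is named after its values were seen. S100g, a calcium carrier of the duodenum, was at least 17.5-fold and S100b, a glial marker, at least 1.7-fold brighter at the duodenal site. These 2 genes were dim in all cecal tumors and entered the test through the duodenal tumors alone, so their direction largely follows from the filter. S100a6 was bright at both sites (log2 difference 0.08, adjusted p = 0.768). Of 9 other lipocalins on the array 2 were tested and neither passed by limma, with 1 at an unadjusted p under 0.05: Rbp4, the retinol carrier (-0.98, adjusted p = 0.129, or 0.0251 with the block), and Apod (0.39, adjusted p = 0.47).

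Iron genes, set beside Lcn2 for its part in iron withholding, were mainly lower in cecal tumors where they passed. Of 9 tested, 3 were lower and 1 higher, with a median of -0.07, beside 4.73% lower and 5.71% higher over all tested genes. Ltf, lactoferrin, which binds iron directly, had 3377.2, 848.8 and 1908.9 in the duodenal and 47.8, 173.5 and 151.4 in the cecal tumors (log2 difference -3.82 ± 0.54 SE, limma adjusted p = 0.00449). Slc11a2, the importer DMT1, had -2.78 ± 0.44 (adjusted p = 0.00736), with other probe sets at -1.89, which passed, and -0.58, which did not. Cybrd1, the duodenal iron reductase, was at least 8.63-fold brighter at the duodenal site and entered the test through the duodenal tumors alone. Heph, the ferroxidase of iron export, rose by 0.88 ± 0.14 in cecal tumors (adjusted p = 0.00691). Fth1, the ferritin heavy chain, and Tfrc, the transferrin receptor, had 0.08 and 0.51 and did not pass, though Tfrc did without duodenal tumor 2 (0.0406).

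Receptors and partners of the members gave 1 call among 9 tested genes, that of Mmp9, with a median of -0.13. Over all tested genes 5.71% were higher and 4.73% lower in cecal tumors. The Lcn2 receptor Slc22a17 had 110.7 ± 14.5 in duodenal and 81.2 ± 44.3 in cecal tumors (limma adjusted p = 0.427), and the serum amyloid receptor Scarb1 727.5 ± 93.2 and 575.1 ± 261.1 (adjusted p = 0.451; SD, n = 3 each). Emb and Bsg, which can bind S100a9, had log2 differences of 0.46 and -0.13 and did not pass. Ager, the receptor RAGE for S100 proteins, stayed at or below 27.9, and Fpr2, a receptor for serum amyloid A, at or below 85.9 in all tumors. Tlr4, a receptor for calprotectin, had 232 to 285.4 in duodenal and 249.1 to 282.7 in cecal tumors, and its log2 difference rounded to 0 (adjusted p = 0.998). Fpr2, Ager and Tlr4 are named after their values were seen.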

How the data were processed

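Tumor RNA of 6 mice was hybridised to 1 Affymetrix array each. The deposited values are linear probe set intensities that the authors made with MAS5, per the submitters' processing notes; the sources used here do not give the MAS5 version, the scaling or the detection calls. Groups and replicate numbers come from the titles, and the labels' protocols state different mice.

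Gene names were those of the platform annotation where it gave 1 gene (20380 probe sets; 691 had several and 1555 none), and 64 controls were left out. A probe set was tested when above its array's 40th percentile on at least 3 arrays (2 when arrays were left out). log2(intensity + 16) was fitted with limma 3.58.1 in R 4.3.3 (lmFit, eBayes with trend), two-sided, Benjamini-Hochberg adjusted over 13866 probe sets, threshold 0.05. The offset understates changes of dim genes. Bounds set the bright group's mean log2 intensity against the dim group's 40th percentile level. Only 3 tumors a site limit the precision. The procedure was tested on simulated data.

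The members, 19 gene lists (271 of 318 entries on the array), tests and rules were chosen with earlier results of these data known. The text names all members, up to 4 genes a list with the smallest p and 2 brightest (3 brightest for markers), and the 5 genes most like Saa1, Lcn2 and S100a8; further genes, dim markers among them, were named after their values were seen.

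Replicate numbers recur at both sites. For tumors sharing a number, the deviations from the site means had correlations of 0.2735, 0.2988 and 0.2033. No label says what the numbers share, so the main fit had no term for them and was not paired. A fit with the number as a block, a pairing taken from the data, was an alternative. Promoter sequences are RefSeq's, aligned with Biopython 1.88, and all 7 members matched by symbol. No protein sequences were used here. Figures were drawn with matplotlib 3.10.9.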

Additional observations from a re-analysis of the deposited data

How the results depend on the processing

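The count of 4 member probe sets that passed was 3 with the 60th percentile filter, which left Saa2 untested, and 3 with 1 probe set a gene, and 4 under the other 15 alternatives, each single array left out included. Log2 differences over all alternatives ran from 5.57 to 7.48 and from 6.27 to 9.6 for the Saa1 probe sets, from 2.03 to 3.86 for Saa2 and from 1.54 to 1.98 for Saa3, with adjusted p of at most 0.000269, 0.000182, 0.00523 and 0.0129. In the fit that blocks on replicate number the count was 4 and no member call changed. That of list genes was 51, and 41 to 61 under the alternatives. S100a8 (0.72 to 2.19) and S100a9 (0.96 to 2.48) kept their sign and passed under none, at adjusted p of at least 0.173 and 0.113. Lcn2 turned its sign with array weights (0.08); with single arrays left out it ran from -0.57 to 0.25. Dim signal limits Saa4 and the size of the Saa1 and Saa2 differences. The males alone were added after the data were seen.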
